A study of Mus musculus with 9 samples.

Results

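The genes described here are the 10 G1 regulators Ccnd1, Ccnd2, Ccnd3, Ccne1, Cdkn1a, Cdkn1b, Cdkn1c, Cdkn2a, Cdkn2b and Cdkn2c, chosen by gene symbol among 37104 loci measured by RNA-seq in cultured primary mouse lung endothelial cells (MLEC). All 10 were among the 10605 genes that reached a mean of 2 FPKM (fragment counts scaled by transcript length and by the size of the library) in at least 1 group and were tested. Of these 10 genes, 4 are cyclins and 6 are inhibitors of cyclin-dependent kinases (CDK). The 9 libraries formed 3 groups of 3, all from C57BL/6J adults of 10 to 12 weeks that lack Jnk3 in every cell (Jnk3-/-). E3KO MLEC carried Cdh5-Cre and LoxP-flanked alleles of both Jnk1 and Jnk2 (Cdh5-Cre+ Jnk1LoxP/LoxP Jnk2LoxP/LoxP). ECtrl MLEC carried the same Cre with wild-type genes (Cdh5-Cre+ Jnk1+/+ Jnk2+/+), and EfCtrl MLEC carried the LoxP alleles without Cre (Cdh5-Cre-). Cre was driven by the promoter of VE-cadherin, an endothelial gene, so JNK1 and JNK2 are lost only in cells that have used it, while JNK3 is absent from the controls too. Each library came from a separate isolation in which the lungs of several mice were pooled, and cells were selected for ICAM2 and cultured. Because bulk RNA was measured, fewer cells expressing a gene and less of its RNA per cell cannot be told apart.

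D-type cyclins bind CDK4 and CDK6 in early G1 and start phosphorylation of the retinoblastoma protein, and cyclin E with CDK2 completes it at entry into S phase. The INK4 inhibitors (Cdkn2a, Cdkn2b, Cdkn2c) bind CDK4 and CDK6 alone, whereas the CIP/KIP inhibitors (Cdkn1a, Cdkn1b, Cdkn1c) bind cyclin-CDK complexes and block CDK2. Cdkn1a (p21) is a classical target of p53, and Cdkn2b (p15) is known for its induction by TGF-beta in epithelial cells.

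The JNK genes themselves were read first. Mapk9 (JNK2) fell from 46.5 ± 2.99 FPKM in the controls (SD, n = 6) to 27.8 ± 7.21 FPKM in E3KO MLEC (n = 3; limma, adjusted p = 0.0359). Its adjusted p was 0.0642 without E3KO replicate 1, and it did not pass against ECtrl alone or EfCtrl alone. Mapk8 (JNK1) was at 8.77 and 4.65 FPKM in E3KO replicates 2 and 3, below every control library (14.0 to 17.9 FPKM), but at 20.7 FPKM in the library labelled E3KO replicate 1, above every control. Over all 3 libraries the Mapk8 difference did not pass the test (adjusted p = 0.285), and without E3KO replicate 1 it did (adjusted p = 0.0298). These FPKM values cover whole genes and do not isolate the deleted exons. Mapk10 (JNK3) was at most 0.270 FPKM in any library. The library labelled E3KO replicate 1 stood apart in other ways. Its FPKM summed to 9841812, against 656089 to 908401 in the other 8 libraries, with 96.4% of the sum in 10 symbols, and without symbols averaging 5000 FPKM or more the 9 sums ran from 388537 to 433172. It also listed 19239 symbols at 0, against 16436 to 17964 in the others. The 8 endothelial markers were all expressed, with summed FPKM of 2673 to 3418 in ECtrl, 3105 to 3265 in EfCtrl and 3448 to 3816 in E3KO. Of these 8, 1 rose in E3KO against the mean of the controls (limma). The 4 lymphatic endothelial markers summed to 2127 to 2777, 2120 to 2335 and 1975 to 2285 FPKM in the same order. Of these 4, 1 fell against the mean of the controls, against ECtrl and against EfCtrl, beside 4.80%, 2.25% and 0.952% of all genes passing. The 9 leukocyte markers summed to 42.6 to 133, 133 to 231 and 162 to 286 FPKM in the same order, with Cd3e at 0 in every library. The 10 mural and fibroblast markers summed to 12.0 to 45.5, 25.7 to 78.2 and 10.1 to 22.9 FPKM, with Lum under 0.1 FPKM throughout. The 4 epithelial markers summed to at most 2.03 FPKM in the controls and to between 0.0686 and 49.4 FPKM in E3KO, the top value being that of E3KO replicate 1. The part of these markers in the results below was not tested. For each member the log2 difference from the mean of the controls is given with and without E3KO replicate 1. For the lists it is said which of the named calls were kept without it.

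Promoter sequences are shown for the 4 inhibitors whose E3KO libraries lay wholly above or wholly below all control libraries, so that the elements before their start sites can be read beside their levels. Each is the 250 bases before an annotated start, read 5′ to 3′ along the gene's strand, from RefSeq on GRCm38.p6, the same assembly as the authors' mm10. Capitals mark matches to any of the motifs listed after them. Cdkn1a has 2 starts, and the window before the inner one overlaps an exon of AC167363.2, annotated on the opposite strand. Cdkn2c also has 2 starts, of which the outer is shown; the window before the inner one held none of the motifs.
Cdkn1a outer start, chr17:29090729-29090978, plus strand: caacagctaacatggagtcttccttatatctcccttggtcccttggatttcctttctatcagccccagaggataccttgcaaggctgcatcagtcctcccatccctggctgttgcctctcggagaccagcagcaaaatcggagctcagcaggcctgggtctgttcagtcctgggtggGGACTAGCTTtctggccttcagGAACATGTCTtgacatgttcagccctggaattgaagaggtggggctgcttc
Cdkn1a inner start, chr17:29093519-29093768, plus strand: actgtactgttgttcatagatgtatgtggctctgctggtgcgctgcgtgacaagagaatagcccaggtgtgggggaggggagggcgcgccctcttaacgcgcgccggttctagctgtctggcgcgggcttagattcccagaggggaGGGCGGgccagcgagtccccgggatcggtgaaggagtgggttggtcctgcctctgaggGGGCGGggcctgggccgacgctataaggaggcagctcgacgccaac
Cdkn2b, chr4:89311033-89311282, minus strand: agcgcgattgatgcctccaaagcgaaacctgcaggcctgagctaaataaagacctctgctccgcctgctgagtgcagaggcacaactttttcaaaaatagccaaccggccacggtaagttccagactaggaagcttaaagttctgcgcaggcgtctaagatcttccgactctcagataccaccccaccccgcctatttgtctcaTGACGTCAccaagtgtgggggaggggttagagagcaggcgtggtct
Cdkn1b, chr6:134920151-134920400, plus strand: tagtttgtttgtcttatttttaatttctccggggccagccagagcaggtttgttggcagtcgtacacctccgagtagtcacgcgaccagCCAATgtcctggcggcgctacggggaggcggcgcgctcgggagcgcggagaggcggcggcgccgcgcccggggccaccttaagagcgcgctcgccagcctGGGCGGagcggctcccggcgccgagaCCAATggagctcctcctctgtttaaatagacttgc
Cdkn2c outer start, chr4:109666757-109667006, minus strand: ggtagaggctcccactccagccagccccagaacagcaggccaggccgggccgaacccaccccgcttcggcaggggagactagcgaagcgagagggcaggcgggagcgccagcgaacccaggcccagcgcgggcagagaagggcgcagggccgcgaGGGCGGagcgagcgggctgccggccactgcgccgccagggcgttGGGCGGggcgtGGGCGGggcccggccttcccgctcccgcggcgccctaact

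The motifs were searched on both strands and in 32526 such windows of all genes. The GC box (GGGCGG), bound by SP family factors, occurred in 33% of all windows, 2 times before the inner Cdkn1a start, 3 times before the outer Cdkn2c start and 1 time before Cdkn1b. The cyclic AMP response element (TGACGTCA), bound by ATF and CREB factors and by ATF-JUN pairs, occurred in 1.56% of all windows and began 46 bases before the Cdkn2b start. The CCAAT box (CCAAT; 33.8% of windows) occurred 2 times before Cdkn1b. The p53 half-site, a decamer searched by its usual consensus and added after the sequences were seen, occurred in 7.13% of windows and at 2 places before the outer Cdkn1a start. None of these 5 windows held TGANTCA (AP-1; 6.73% of windows), TATAAA (12.3%) or an E2F-type TTTNNCGC (4.31%). The p53 decamer can overlap its own copies, and the AP-1 and CRE letters share TGA at one end. Promoters of 7 of the 10 genes were in the table used. A match describes letters only.

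The levels of the 10 genes were compared per length, as FPKM, within the 6 control libraries. Cdkn1a stood first at 191 ± 27.1 FPKM (SD, n = 6), above Ccnd2 at 96.9 ± 16.0, Ccnd1 at 64.3 ± 9.74 and Cdkn2b at 63.1 ± 9.43 FPKM. Cdkn1b followed at 20.1 ± 4.03, Ccnd3 at 9.89 ± 1.18, Cdkn2c at 7.81 ± 2.71, Ccne1 at 6.56 ± 1.41, Cdkn2a at 4.71 ± 0.765 and Cdkn1c at 2.12 ± 0.807 FPKM. Ccnd1 was above Cdkn2b in 4 of the 6 control libraries, so these neighbours could not be placed in order. Ccnd3 over Cdkn2c, Cdkn2c over Ccne1 and Ccne1 over Cdkn2a held in 5 of 6 libraries each. The other 5 of the 9 neighbouring pairs kept their order in all 6 libraries, and Cdkn1a was above Ccnd2 in all 9. Among the D-type cyclins of MLEC, Ccnd2 and Ccnd1 were thus far above Ccnd3, and Cdkn1a and Cdkn2b were the leading inhibitors of their families.

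**Figure D1:**
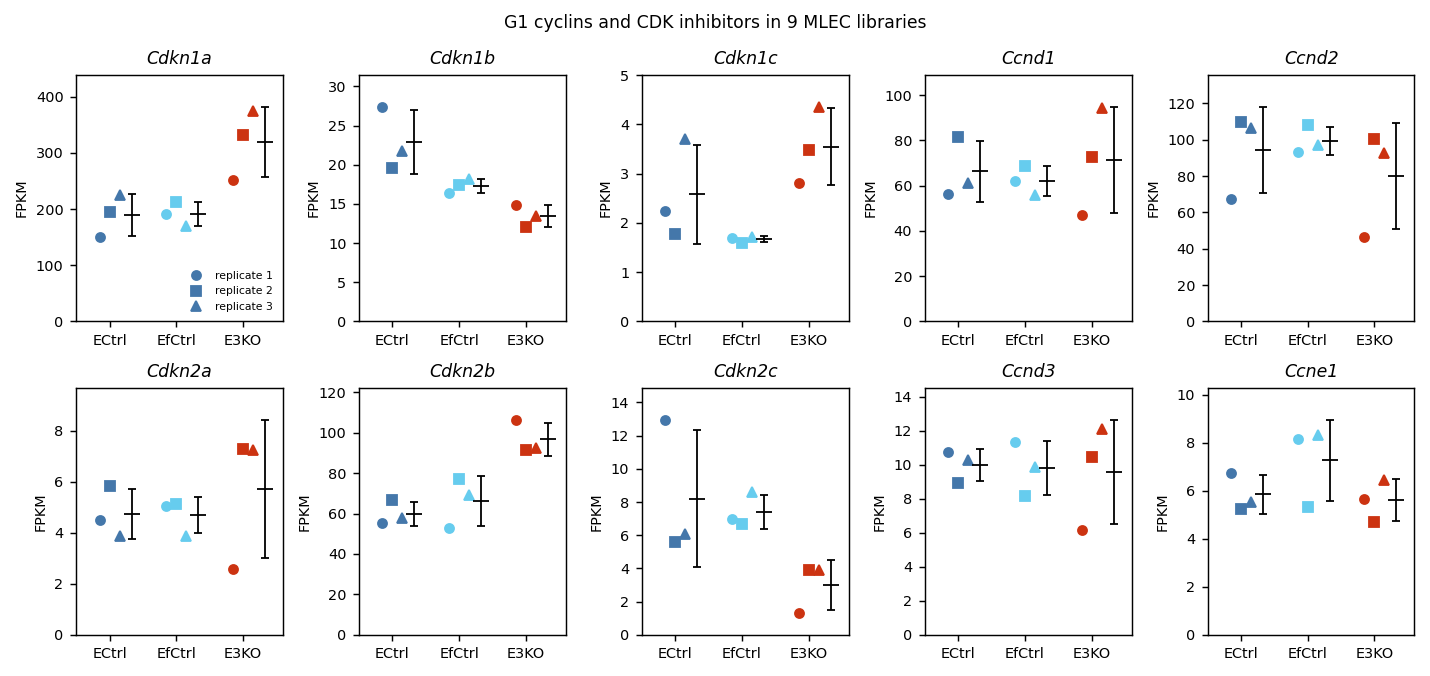
FPKM of the 10 genes (vertical axis, linear from 0) in each of the 9 libraries, grouped as ECtrl, EfCtrl and E3KO; the marker shape gives the replicate number and the bar beside each group its mean ± SD (n = 3). All E3KO points of Cdkn1a and Cdkn2b lie above the control points, those of Cdkn1b and Cdkn2c lie below, and the cyclins overlap.

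The question of the main comparison was which of these regulators differ between the libraries labelled E3KO and the controls. Cdkn1a and Cdkn2b rose in E3KO MLEC by the test across all genes. Every E3KO library lay above every control library for Cdkn1a and Cdkn2b, and below every control library for Cdkn1b and Cdkn2c, which is 4 of the 6 inhibitors and 0 of the 4 cyclins. Of all 10605 genes tested, 5.18% had every E3KO library above, 11.5% had every one below, and 16.6% had either. With limma across all genes, 2 of the 10 passed in the comparison of E3KO with the mean of the controls, against 4.80% of all genes, and both were higher (1.54% of all genes were higher and 3.26% lower). The exact two-sided permutation test of each gene, on the absolute difference in mean log2(FPKM + 0.1) over all 84 choices of 3 libraries from 9, gave a p under 0.05 for 5 of the 10, against 25.7% of all genes, and the smallest p it can give is 0.0119. The fifth of these, beside the 4 above, was Cdkn1c. The median log2 difference was 0.35 over the 6 inhibitors, -0.13 over the 4 cyclins and -0.08 over all genes tested. Without E3KO replicate 1 the cyclins differed by 0.37 (Ccnd1), 0.01 (Ccnd2), 0.18 (Ccnd3) and -0.20 (Ccne1). The negative sign of the cyclin median thus rested on that library. Without it the inhibitors differed by 0.90 (Cdkn1a), -0.60 (Cdkn1b), 0.68 (Cdkn1c), 0.54 (Cdkn2a), 0.55 (Cdkn2b) and -0.80 (Cdkn2c).

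Cdkn1a (locus in mm10, chr17:29090979-29100722, plus strand) encodes p21, which binds cyclin-CDK complexes and PCNA. Its level was 150.5, 195 and 224 FPKM in ECtrl replicates 1 to 3, 192, 213 and 171 FPKM in EfCtrl, and 252, 332 and 375 FPKM in E3KO. The lowest E3KO library was above the highest control, and the lowest of the 3 was E3KO replicate 1. The E3KO mean of 319.7 ± 62.5 FPKM (SD, n = 3) was 1.67 times the control mean. On the log2(FPKM + 1) scale the difference was 0.73 ± 0.17 (SE; 95% interval 0.34 to 1.12; limma, adjusted p = 0.0495), and the exact permutation p was 0.0119. Without E3KO replicate 1 it was 0.90 ± 0.16 (adjusted p = 0.0352; exact permutation p = 0.0357, the smallest that 28 arrangements can give). The call was kept without E3KO replicate 1 or ECtrl replicate 3 and was lost without any of the other 7 libraries, where the adjusted p ran from 0.0743 to 0.150. The annotated transcript AC167363.2 lies in the same locus on the opposite strand, and whether the counting used strand is not given in the sources used here.

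Cdkn2b (chr4:89306289-89311032, minus strand) encodes p15, an INK4 inhibitor of CDK4 and CDK6. It was at 55.3, 66.5 and 57.8 FPKM in ECtrl, 52.6, 77.1 and 69.4 FPKM in EfCtrl, and 106, 91.3 and 92.5 FPKM in E3KO. The 3 E3KO libraries were all above the highest control, EfCtrl replicate 2, and E3KO replicate 1 was the highest of all. The E3KO mean of 96.7 ± 8.35 FPKM was 1.53 times that of the controls. The log2 difference was 0.62 ± 0.14 (95% interval 0.30 to 0.93; limma, adjusted p = 0.0443; exact permutation p = 0.0119). The direction held without each library in turn, but the adjusted p then ran from 0.0535 to 0.118, so that leaving out any 1 of the 9 libraries ended the call. Without E3KO replicate 1 the log2 difference was 0.55 ± 0.15 (adjusted p = 0.0905; exact permutation p = 0.0357).

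Cdkn1b (chr6:134920401-134925513, plus strand) encodes p27, a CIP/KIP inhibitor that accumulates in quiescent cells. It was at 27.4, 19.6 and 21.7 FPKM in ECtrl, 16.4, 17.4 and 18.2 FPKM in EfCtrl, and 14.8, 12.0 and 13.5 FPKM in E3KO. The 3 groups did not overlap, with EfCtrl between ECtrl and E3KO. The E3KO mean was 13.5 ± 1.40 FPKM, 0.669 times the control mean. The log2 difference was -0.53 ± 0.12 (95% interval -0.81 to -0.25), with an adjusted p of 0.0502 by limma, just short of passing, and an exact permutation p of 0.0238. Without E3KO replicate 1 it was -0.60 ± 0.13 (adjusted p = 0.0569; exact permutation p = 0.0357), and without ECtrl replicate 2 the adjusted p was 0.0450.

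Cdkn2c (chr4:109660876-109667189, minus strand) encodes p18, an INK4 inhibitor. It was at 12.9, 5.61 and 6.06 FPKM in ECtrl, 6.97, 6.68 and 8.58 FPKM in EfCtrl, and 1.29, 3.89 and 3.87 FPKM in E3KO. All E3KO libraries were below the lowest control, with E3KO replicate 1 the lowest and ECtrl replicate 1 the highest. The E3KO mean was 3.02 ± 1.5 FPKM against 7.81 ± 2.71 FPKM in the controls, 2.59 times as high in the controls. The log2 difference was -1.17 ± 0.32 (95% interval -1.89 to -0.44). It did not pass the test across all genes (limma, adjusted p = 0.0756), while the exact permutation p was 0.0119. Without E3KO replicate 1 the difference was -0.80 ± 0.27 (adjusted p = 0.149; exact permutation p = 0.0714).

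Cdkn1c, the imprinted gene of p57 (chr7:143458350-143461050, minus strand), was the lowest of the 10 in the controls. It was at 2.25, 1.78 and 3.70 FPKM in ECtrl, 1.70, 1.60 and 1.71 FPKM in EfCtrl, and 2.81, 3.47 and 4.36 FPKM in E3KO. E3KO was above all EfCtrl libraries and overlapped ECtrl through ECtrl replicate 3. The log2 difference was 0.56 ± 0.18 (95% interval 0.16 to 0.97; limma, adjusted p = 0.110; exact permutation p = 0.0476), and without E3KO replicate 1 it was 0.68 ± 0.19 (adjusted p = 0.0915; exact permutation p = 0.0714). Without ECtrl replicate 3 it passed, at an adjusted p of 0.0416. An annotated antisense gene, Gm44732, shares the locus.

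Cdkn2a (chr4:89274473-89294653, minus strand) encodes p16 and, from another reading frame, p19ARF, and the gene-level FPKM does not separate them. It was at 4.51, 5.82 and 3.89 FPKM in ECtrl, 5.06, 5.12 and 3.88 FPKM in EfCtrl, and 2.57, 7.29 and 7.25 FPKM in E3KO. E3KO replicates 2 and 3 were above every control, and E3KO replicate 1 was below every control. The log2 difference was 0.14 ± 0.28 (95% interval -0.49 to 0.77; limma, adjusted p = 0.779; exact permutation p = 0.726), and without E3KO replicate 1 it was 0.54 ± 0.15 (adjusted p = 0.0884; exact permutation p = 0.0357). The value of Cdkn2a therefore turned on that 1 library.

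The cyclins overlapped between groups. Ccnd1 (cyclin D1; chr7:144915100-144939869, minus strand), a target of many growth signals, was at 56.4, 81.7 and 61.1 FPKM in ECtrl, 61.9, 68.7 and 55.7 FPKM in EfCtrl, and 47.2, 72.5 and 94.3 FPKM in E3KO. The E3KO libraries held both the lowest and the highest value of the 9. The log2 difference was 0.11 with a 95% interval of -0.39 to 0.60 (limma, adjusted p = 0.788), and 0.37 without E3KO replicate 1 (adjusted p = 0.253). Ccnd2 (cyclin D2; chr6:127125779-127212411, minus strand) was at 67.1, 109.9 and 106 FPKM in ECtrl, 93.2, 108 and 97.2 FPKM in EfCtrl, and 46.4, 100.1 and 92.9 FPKM in E3KO. Replicates 2 and 3 of E3KO lay within the control range and E3KO replicate 1 was below it. Its log2 difference was -0.33 (95% interval -0.94 to 0.27; limma, adjusted p = 0.463) and 0.01 without E3KO replicate 1 (adjusted p = 0.979).

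Ccnd3 (cyclin D3; chr17:47505051-47611492, plus strand) was at 10.8, 8.93 and 10.3 FPKM in ECtrl, 11.3, 8.16 and 9.88 FPKM in EfCtrl, and 6.17, 10.5 and 12.1 FPKM in E3KO, with E3KO replicate 1 again the lowest. Its log2 difference was -0.08 (95% interval -0.53 to 0.37; limma, adjusted p = 0.823) and 0.18 without E3KO replicate 1 (adjusted p = 0.487). Ccne1 (cyclin E1; chr7:38097984-38107534, minus strand), the partner of CDK2, was at 6.75, 5.25 and 5.54 FPKM in ECtrl, 8.14, 5.33 and 8.33 FPKM in EfCtrl, and 5.67, 4.69 and 6.43 FPKM in E3KO. All 3 E3KO values were below the control mean, within or just under the control range. Its log2 difference was -0.18 (95% interval -0.55 to 0.18; limma, adjusted p = 0.501) and -0.20 without E3KO replicate 1 (adjusted p = 0.582). The widest of these intervals, that of Ccnd2, ran from -0.94 to 0.27. Other annotated genes share the loci of Ccnd1 (LTO1), Ccnd2 (4 antisense genes and pseudogenes) and Ccnd3 (Bysl), so their FPKM values may include reads of those genes.

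The controls were then taken 1 at a time. Both comparisons use the same 3 E3KO libraries. Against ECtrl, which shares Cre with E3KO, 1 of the 10 passed, Cdkn1b, beside 2.25% of all genes. Its log2 difference was -0.72 ± 0.14 (limma, adjusted p = 0.0462), and it was -0.78 ± 0.15 without E3KO replicate 1 (adjusted p = 0.0480). The call was also kept without ECtrl replicate 2 and was lost without each of the other 7 libraries, at adjusted p values of 0.0831 to 0.132. Cdkn1a differed by 0.75 ± 0.20 (adjusted p = 0.0871), Cdkn2b by 0.68 ± 0.16 (adjusted p = 0.0653), Cdkn2c by -1.19 ± 0.37 (adjusted p = 0.128) and Cdkn1c by 0.37 ± 0.20 (adjusted p = 0.351). At an unadjusted p under 0.05, 4 of the 10 stood out in that comparison, beside 20.1% of all genes.

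Against EfCtrl, which shares the LoxP alleles, limma passed 0 of the 10 genes, beside 0.952% of all genes, and 5 of the 10 had an unadjusted p under 0.05, beside 17.7% of all genes. Cdkn1a differed by 0.72 ± 0.20 (adjusted p = 0.121), Cdkn2b by 0.55 ± 0.16 (adjusted p = 0.136) and Cdkn1c by 0.75 ± 0.20 (adjusted p = 0.121). Cdkn2c differed by -1.14 ± 0.37 (adjusted p = 0.172) and Cdkn1b by -0.34 ± 0.14 (adjusted p = 0.259). The other 5 genes had adjusted p values of at least 0.624 against ECtrl and at least 0.404 against EfCtrl. Between the controls, limma passed 0 of the 10 genes, beside 0.00% of all genes (195 of 10605 had an unadjusted p under 0.05). The 1 gene of the 10 with an unadjusted p under 0.05 was Cdkn1b, which EfCtrl held at the lower level (log2 difference -0.37 ± 0.14; limma, unadjusted p = 0.0300, adjusted p = 1.0). Cdkn1a and Cdkn2c differed little between the controls in value, by 0.03 and -0.05, with intervals of -0.43 to 0.48 and -0.89 to 0.79.

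**Figure D2:**
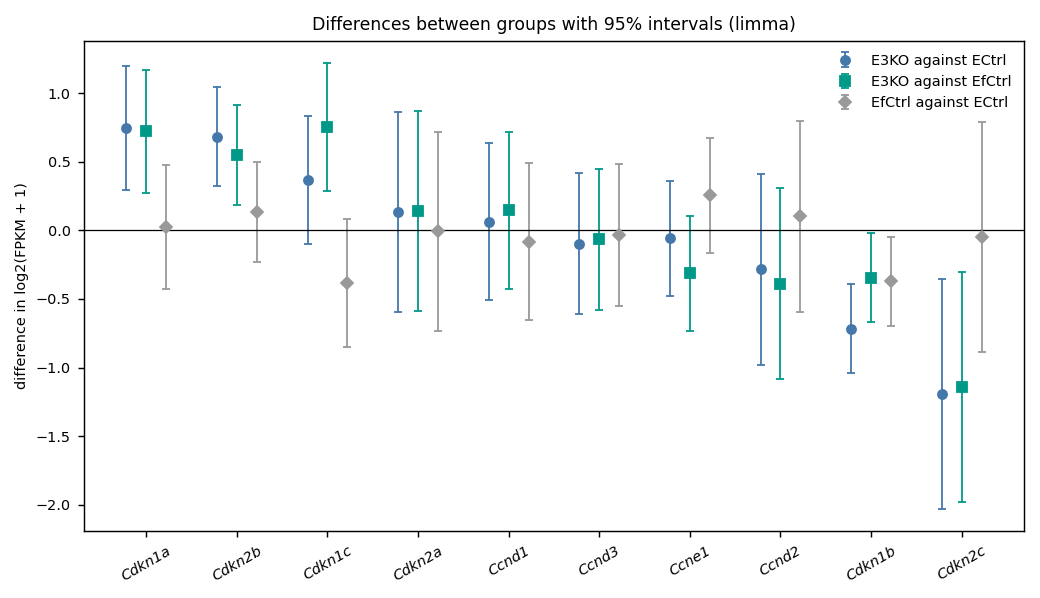
Difference in log2(FPKM + 1) (vertical axis) for each of the 10 genes between E3KO and ECtrl, E3KO and EfCtrl, and EfCtrl and ECtrl; points are limma estimates and bars their 95% intervals, from all 9 libraries. Cdkn1a and Cdkn2b lie above 0 and Cdkn1b and Cdkn2c below 0 in both comparisons of E3KO, and the interval of Cdkn1b between the controls also lies below 0.

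Summed within each library, the inhibitors made up more of the G1 regulators in E3KO MLEC. These sums and ratios are descriptions made of genes described above. The CIP/KIP genes summed to 180.2 to 249.9 FPKM in the controls and 269.8 to 393 FPKM in E3KO, and Cdkn1a was 83.5% to 91.8% of that sum in the controls and 93.5% to 95.5% in E3KO. The INK4 genes among the members summed to 64.7 to 88.9 FPKM in the controls and 102 to 110.2 FPKM in E3KO. Cdkn2b was 76.0% to 86.7% of that sum in the controls and 89.1% to 96.5% in E3KO. The D-type cyclins summed to 134 to 201 FPKM in the controls and 99.8 to 199 FPKM in E3KO. The low value was that of E3KO replicate 1, and replicates 2 and 3 were at 183 and 199 FPKM, within the control range. The ratio of Cdkn1a to Cdkn1b ran from 5.49 to 12.2 in the controls and from 17.0 to 27.8 in E3KO. The ratio of Cdkn2b to Cdkn2c ran from 4.27 to 11.9 and from 23.5 to 82.7, the top value being that of E3KO replicate 1. Cdkn1a and Cdkn2b, the most abundant of their families, were thus higher and Cdkn1b and Cdkn2c lower in every E3KO library. The remaining low members did not fall in this way. Cdkn1c was above the control mean in all 3 E3KO libraries. Cdkn2a was above every control in E3KO replicates 2 and 3 and below every control in replicate 1. The ratio of all 6 inhibitors to the D-type cyclins was 1.47 to 1.88 in the controls and 2.46 to 3.81 in E3KO. The top value was that of E3KO replicate 1, and replicates 2 and 3 were at 2.46 and 2.49.

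**Figure D3:**
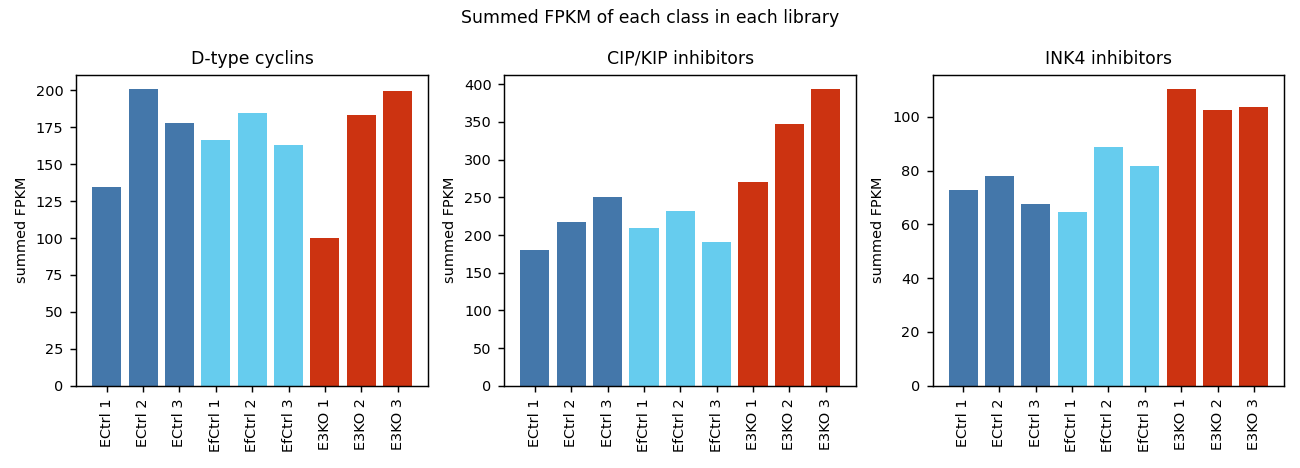
Summed FPKM (vertical axes, linear from 0) of the members that are D-type cyclins, CIP/KIP inhibitors and INK4 inhibitors in each of the 9 libraries, 1 bar a library, with no error bars. Both inhibitor sums are higher in the 3 E3KO libraries than in any control, and the D-type cyclin sums overlap.

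The genes around these regulators were read from lists. Of 14 markers of S phase and mitosis, all tested, 8 fell and 0 rose against the mean of the controls (limma). Of all genes, 3.26% were lower and 1.54% higher. Against ECtrl alone 4 of the 14 fell, and against EfCtrl alone 1 fell, beside 2.25% and 0.952% of all genes passing. Of the 14, 11 had every E3KO library below every control, as did 11.5% of all genes. Mki67, the Ki-67 proliferation antigen, fell from 8.10 ± 0.974 to 3.63 ± 0.685 FPKM (log2 difference -0.98; adjusted p = 0.0124). Top2a, a topoisomerase of dividing cells, fell from 39.8 ± 11.1 to 15.7 ± 1.88 FPKM (-1.26; adjusted p = 0.0222). Ccna2 (cyclin A2) fell from 25.4 ± 6.33 to 10.4 ± 3.27 FPKM (-1.21; adjusted p = 0.0248), and Pcna, the sliding clamp of DNA polymerase, from 13.4 ± 1.16 to 7.78 ± 1.66 FPKM (-0.73; adjusted p = 0.0248). Mcm5, of the replicative helicase, fell from 5.22 ± 0.834 to 2.38 ± 0.677 FPKM (-0.89; adjusted p = 0.0264). The median log2 difference of the list was -0.86, against -0.08 over all genes tested. In culture, the paper reported that control and E3KO MLEC did not differ in DNA synthesis (EdU incorporation) or in Ki-67 staining. Whether these RNA levels go with slower division was not tested here. The count of 8 became 6 without E3KO replicate 1, and of the calls named above that of Pcna was lost. It became 5 without ECtrl replicate 1, and 4 without EfCtrl replicate 2 or with no filter on low values (which lost Ccna2). It was 3 without E3KO replicate 2 and 1 without EfCtrl replicate 1 or EfCtrl replicate 3. It was 0 without E3KO replicate 3, where 9 genes passed in all of 10639 tested.

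Among 23 tested genes of the G1/S machinery (CDKs, cyclins, E2F and DP factors, pocket proteins and their regulators), Tfdp2 alone passed the test. This share of 1 in 23 is near the 4.80% of all genes that passed. This DP partner of E2F factors fell from 6.68 ± 0.553 to 4.35 ± 0.290 FPKM (log2 difference -0.52; limma, adjusted p = 0.0222; 0.0327 without E3KO replicate 1), and it did not pass without EfCtrl replicate 1 or 3 or without E3KO replicate 2 or 3, when 0 genes of the list passed. Without ECtrl replicate 3, 3 genes of the list passed. Against ECtrl alone and against EfCtrl alone, 0 of the 23 passed, beside 2.25% and 0.952% of all genes. Every E3KO library was below every control for 6 of the 23 (11.5% of all genes) and above for 0 (5.18% of all genes). Of the 23 differences from the mean of the controls, 21 were negative, with a median of -0.41, against -0.08 over all genes tested. That median was the value of Cdk6, which became 0.004 without E3KO replicate 1 (limma, adjusted p = 0.994). The list median without that library and the share of all genes with a negative difference were not computed. The kinases that the members bind did not pass. Cdk4 was at 286 ± 24.6 FPKM in the controls and 252 ± 28.1 FPKM in E3KO (adjusted p = 0.356), far above Cdk6 at 1.94 ± 0.645 and 1.34 ± 0.984 FPKM (adjusted p = 0.449). Cdk2 was at 18.6 ± 3.55 and 15.1 ± 0.651 FPKM (adjusted p = 0.259). Without E3KO replicate 1 the log2 difference was -0.11 for Cdk4 and -0.27 for Cdk2 (limma, adjusted p = 0.626 and 0.357).

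Of 18 tested genes of the p53 pathway, 2 rose and 0 fell against the mean of the controls. Of all genes, 1.54% were higher and 3.26% lower. Against ECtrl alone 2 of the 18 rose, and against EfCtrl alone 1 rose, beside 2.25% and 0.952% of all genes passing. Every E3KO library was above every control for 3 of the 18 (5.18% of all genes) and below for 2 (11.5% of all genes). Mdm2, the ubiquitin ligase of p53, was at 56.5 to 89.0 FPKM in the controls and at 129, 132 and 186 FPKM in E3KO (log2 difference 0.99 ± 0.18; limma, adjusted p = 0.0241; 0.0352 without E3KO replicate 1). Perp, a desmosomal p53 target, was at 1.90 to 6.54 FPKM in the controls and at 19.1, 17.6 and 27.1 FPKM in E3KO (2.07 ± 0.26; adjusted p = 0.0119; 0.0261 without E3KO replicate 1). The count of 2 became 1 without EfCtrl replicate 1 or EfCtrl replicate 3 and 0 without E3KO replicate 3. The third gene above all controls was Ccng1 (cyclin G1; log2 difference 0.65, adjusted p = 0.0668), and the 2 below were Sesn1 (sestrin 1; -0.75, adjusted p = 0.0630) and Btg2 (-0.23, adjusted p = 0.176), named here after their values were seen. Trp53 itself was at 74.7 ± 8.96 FPKM in the controls and 72.2 ± 3.93 FPKM in E3KO (adjusted p = 0.857). The median of the list was 0.13, against -0.08 over all genes tested, with 12 differences above 0 and 6 below. The share of all genes with a positive difference, and these list values without E3KO replicate 1, were not computed.

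Of 9 tested genes known to act on the inhibitor genes (FOXO, Polycomb, MYC and SMAD factors), 1 passed against the mean of the controls, beside 4.80% of all genes. Against ECtrl alone 1 of the 9 passed, and against EfCtrl alone 0 passed, beside 2.25% and 0.952% of all genes. Every E3KO library was below every control for 3 of the 9 (11.5% of all genes) and above for 0 (5.18% of all genes). Ezh2, the Polycomb methyltransferase that represses the Cdkn2a and Cdkn2b locus in many cell types, fell from 12.1 ± 0.959 to 7.21 ± 1.5 FPKM (log2 difference -0.69 ± 0.13; limma, adjusted p = 0.0264; 0.0343 without E3KO replicate 1). That call was lost without ECtrl replicate 1, E3KO replicate 3 or any EfCtrl library, when 0 genes of the list passed.

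**Figure D4:**
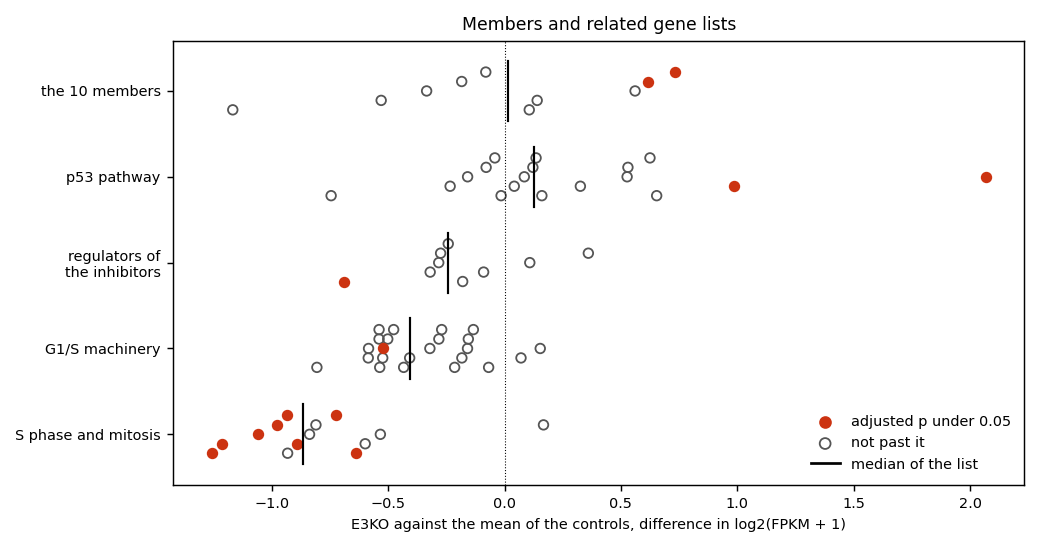
Log2 difference between E3KO and the mean of the controls (horizontal axis, difference in log2(FPKM + 1)) for the tested genes of 4 lists and the 10 members; each circle is a gene, filled where its limma adjusted p is under 0.05, vertical offsets only separate the points, and the bar is the median of the list. The S phase and mitosis genes lie mostly below 0 with a median of -0.86, and the members lie on both sides.

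The profile of Cdkn2b, the member with the smallest p in the comparison with the mean of the controls, was compared with all genes tested by the root mean square difference of centred log2(FPKM + 1) over the 9 libraries. The 3 nearest were Tfpi, the tissue factor pathway inhibitor of endothelium (0.0953), Zfp36, which encodes the mRNA-decay factor tristetraprolin (0.112), and Pfn2, an actin-binding profilin (0.114). Tfpi was at 58.0 to 69.3 FPKM in the controls and at 102, 94.3 and 94.1 FPKM in E3KO.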

How the data were processed

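RNA-seq of poly(A) RNA was carried out on 9 MLEC libraries, 3 per group. The authors aligned reads to mm10 with TopHat, and estimated FPKM with Cufflinks (1.0.3 per the labels), Cuffmerge and Cuffdiff; the use of strand and the annotation release are not given in the sources used here. The deposited FPKM per library was used. The paper gives only an average number of aligned reads over the libraries. The depth of each single library is unknown, since FPKM keeps no counts. The authors' FPKM per group was 1.00 to 1.13 times the library mean for the members in the controls and 1.14 to 1.20 times in E3KO, and was used for nothing else. The authors' log2 fold changes, p-values and q-values between groups were not used. Starts of loci had 1 added, because 15544 of 27812 matched symbols then equal the annotated start and 323 do so as written.

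The 9 libraries entered 1 model of 3 group means in limma (version 3.58.1, R 4.3.3) on the log2(FPKM + 1) scale, restricted to genes averaging at least 2 FPKM in some group, with Benjamini-Hochberg adjustment at 0.05. Fold changes on this scale understate low genes. Exact permutation (scipy 1.17.1) used log2(FPKM + 0.1). Both were tested on simulated data. Groups and replicate numbers came from the labels. The text names the 10 members, up to 5 called genes per list with the smallest adjusted p, the partners Cdk4, Cdk6, Cdk2, Trp53 and Mdm2, the JNK genes, genes sharing a locus, and the 3 profiles nearest to the member with the smallest p against the mean of the controls. The members and lists were chosen with earlier results of these data known. Of the G1/S machinery 23 of 25 listed genes were tested, of the p53 pathway 18 of 19 and of the inhibitor regulators 9 of 12. Of the genes left untested, 1 of the G1/S machinery was not analysed here, and the others lay under the FPKM filter. P-values measure the spread between isolations. Alternatives were another pseudocount, filter, centring, a replicate block, a mean-variance trend and leaving out each library.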

Additional observations from a re-analysis of the deposited data

Results flagged for a closer look

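Cdkn1c was at 3.70 FPKM in ECtrl replicate 3, far from the other 5 control libraries (1.60 to 2.25 FPKM). Its gap to the nearest of them was 0.691 of the range of the 6 controls, above the 0.625 that Dixon's test allows for 6 samples. The 10 members were checked in this way, and chance flags about 1 group in 20.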

How the results depend on the processing

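Each comparison was repeated under 16 alternatives. In the comparison of E3KO with the mean of the controls, 2 members passed; 0 passed with a pseudocount of 0.1 FPKM, with no filter on low values and with a replicate block, and 1 passed with a mean of 1 FPKM or more over all 9 libraries (Cdkn2b) and without E3KO replicate 1 with each library centred on its median (Cdkn1a; added after seeing the data), and 3 with a mean-variance trend (with Cdkn1b). Leaving out 1 library gave 0 to 2 members. Against ECtrl, 1 member passed; 0 passed with a pseudocount of 0.1, with no filter, with centring and with the block, 1 without E3KO replicate 1 and with centring (Cdkn1a in place of Cdkn1b), 2 with a mean-variance trend, and 0 to 1 without 1 library. The exact permutation count of 5 ran from 3 to 5 without 1 library and was 3 without E3KO replicate 2 or 3. No difference of Cdkn1a, Cdkn1b, Cdkn1c, Cdkn2b or Cdkn2c between E3KO and the controls changed sign under any alternative. Against the mean of the controls, the log2 differences that changed sign belong to members that did not pass. Without 1 library they ran from -0.12 to 0.37 for Ccnd1, from -0.53 to 0.012 for Ccnd2, from -0.26 to 0.18 for Ccnd3 and from -0.063 to 0.54 for Cdkn2a. Without E3KO replicate 1 and with centring they were 0.073 for Ccnd2 and 0.24 for Ccnd3. Against ECtrl alone the difference of Ccne1 also changed sign, running from -0.15 to 0.047 over the alternatives. Between the controls the differences of Cdkn1a (-0.13 to 0.15) and Cdkn2c (-0.24 to 0.29) were among those that changed sign. The cause of these changes was not tested. Same-numbered libraries correlated in their deviations from the group means between -0.040 and 0.123, so the numbers were not taken to pair the libraries, which come from different isolations; with the block, 202 genes passed in place of 509 against the mean of the controls, 1 in place of 239 against ECtrl and 1 in place of 101 against EfCtrl. Against the mean of the controls the block also left 4 of the 8 S phase and mitosis calls (without Pcna and Mcm5 among those named) and ended those of Tfdp2, Ezh2 and Mapk9 (the last also lost with no filter), while Mdm2 and Perp still passed. Leaving out 1 library gave 9 (without E3KO replicate 3) to 408 genes. FPKM gives no read depth, so the precision of the low members (Cdkn1c, Cdkn2a, Cdkn2c) rests on the spread between libraries.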
